A study of Mus musculus with 24 samples.

Results

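The cerebellum of Npc1-/- mice treated with dipyridamole was compared with the cerebellum of Npc1+/+ mice given vehicle, to see which differences of the disease model were present while the drug was given. The libraries were taken by the genotype, treatment and tissue in the labels: 4 treated and 4 Npc1+/+ cerebellar libraries, 8 of the 24 libraries of the series, each from 1 mouse. All mice were of the BALB/cNctr-Npc1m1N/J strain, whose mutant Npc1 allele acts in every cell. Treated mice were Npc1-/-, received dipyridamole intraperitoneally at 30 mg/kg in PBS and PEG400 on 5 days per week from postnatal day 28, and were 63 days old, 2 male and 2 female. Npc1+/+ mice received the PBS and PEG400 vehicle alone, were 65 days old and were all female. The 4 vehicle-treated Npc1-/- cerebella (63 days, 3 male and 1 female) entered the same fit and are given beside the main values. Sex was a covariate estimated from the Npc1-/- mice, while age and the labels' ion codes, which they name as batch, cannot be told apart from genotype.

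NPC1 is a membrane protein of the late endosome and lysosome that hands cholesterol from the lysosomal interior to other membranes. Without it cholesterol and sphingolipids build up in lysosomes, and in mice the Purkinje cells, the inhibitory output neurons of the cerebellar cortex, are among the cells lost early while microglia and astrocytes become reactive. Dipyridamole blocks nucleoside transporters and inhibits several cyclic nucleotide phosphodiesterases.

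Npc1 was read first as a check of the labels. Its levels in the 4 Npc1+/+ cerebella were 112, 110, 103 and 102 CPM (the usual counts-per-M scale, with library sizes scaled by TMM), and in the treated cerebella 13.9, 25.0, 16.6 and 28.7 CPM. Every treated library lay below every Npc1+/+ library, by a log2 fold change of -2.24 ± 0.24 (SE, edgeR adjusted p = 5.5e-06). Markers of cerebellar cells were present. Cbln3 of granule cells stood at 2200 to 3420 CPM in Npc1+/+ and 2600 to 2950 CPM in treated cerebella, whereas Hopx of Bergmann glia and Neurod1 of granule cells were at or near 0 in all 8. Among 5 markers of hippocampus and cortex Tbr1 reached at most 0.378 CPM, and the other 4 lay between 0.49 (Dsp) and 78.0 CPM (Prox1), Neurod6 at 8.96 to 13.2 CPM. None of those 4 passed the test. Exons of Npc1 are overlapped by 2 other genes, among them Rmc1.

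Between treated Npc1-/- and Npc1+/+ cerebellum, edgeR's quasi-likelihood test called 1864 of 12921 genes (14.4%) at an adjusted p under 0.05. Of these 1051 (8.13% of those tested) were higher and 813 (6.29%) lower in treated mice, and the median log2 fold change over all genes was -0.007. Changes of at least 2-fold were seen in 823 genes, 551 higher and 272 lower, and changes of at least 4-fold in 181 higher and 63 lower. Groups did not overlap in 1680 of the 1864 genes, against 3337 (25.8%) of all genes tested. The count fell to 858 without treated replicate 4 (846 of them among the 1864) and to 1203 without treated replicate 3. The slope of log2 CPM on gene GC content, which can vary with RNA or library quality, ran from -0.114 to -0.048 per 10 points of GC in Npc1+/+ and from -0.052 to 0.117 in treated libraries. With that slope as a covariate 2262 genes were called, of which 1267 were among the 1864. In whole tissue, fewer cells of a type and less RNA per cell cannot be told apart.

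**Figure D1:**
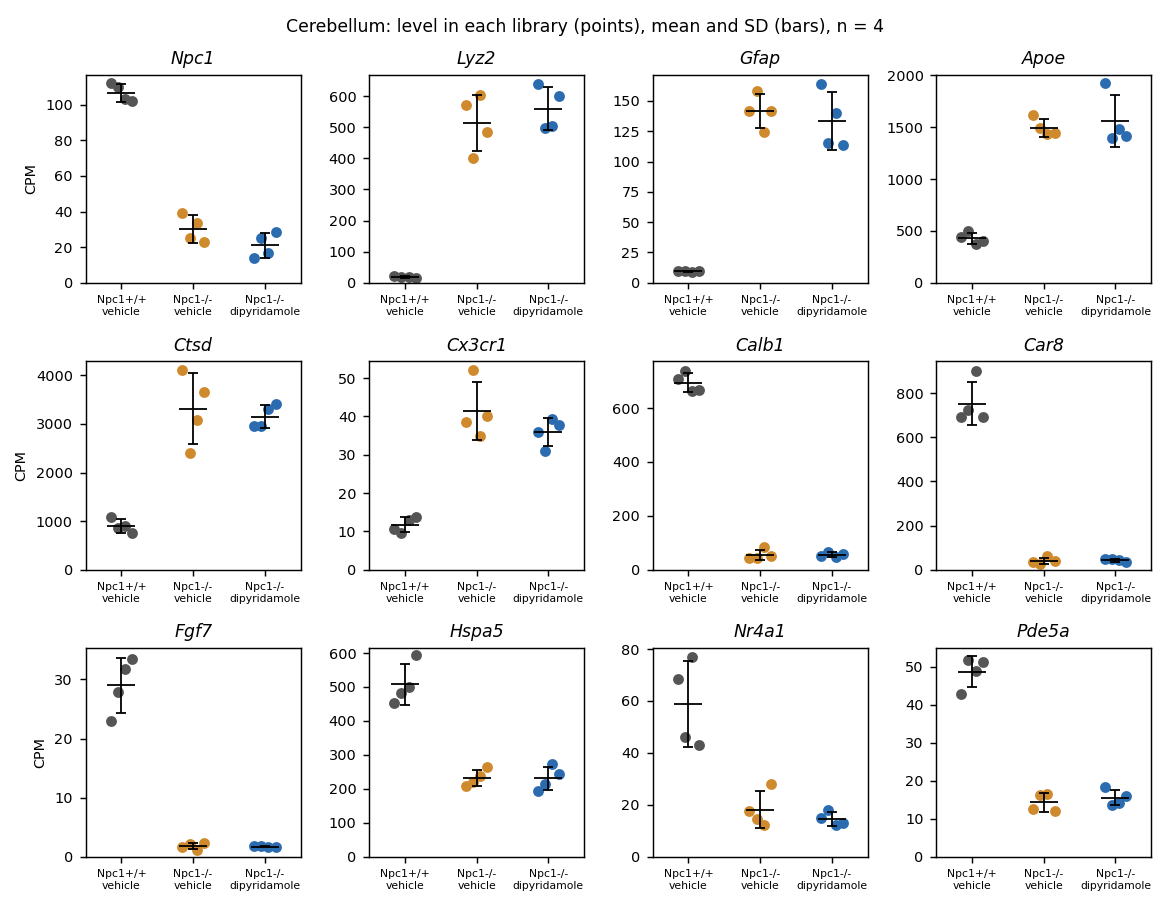
Levels of 12 genes in CPM (y axis, from 0) in each cerebellar library (points) of the 3 groups, with the mean and SD (bars, n = 4). Treated libraries lie on the far side of every Npc1+/+ library for each gene and among or beside the vehicle-treated Npc1-/- libraries.

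The genes that rose most were largely those of phagocytes, which in brain tissue are mainly microglia. The 15 with the largest rises were Itgax, Gpnmb, Atp6v0d2, Cd22, Lgals3, Clec7a, Hpse, Lyz2, C3ar1, Cxcl10, Cd180, Hvcn1, C3, Cd300lf and Cybb, with log2 fold changes from 8.03 down to 3.74. Lyz2, a lysozyme made by phagocytes (chromosome 10 of GRCm39, 117113236 to 117118226, minus strand), stood at 20.5, 19.8, 17.6 and 15 CPM in Npc1+/+ and at 638, 498, 503 and 599 CPM in treated cerebella. All 4 treated libraries lay far above the highest Npc1+/+ library, and the fitted log2 fold change was 4.99 ± 0.18 (SE, edgeR adjusted p = 8.4e-12). Gpnmb, a glycoprotein of lipid-laden phagocytes on chromosome 6 (49013480 to 49047863, plus strand), stood at 0.362, 0.416, 0.534 and 0.126 CPM in Npc1+/+ and at 65.0, 71.7, 68.7 and 64.2 CPM in treated mice. The treated values of Gpnmb were tightly grouped and its log2 fold change was 7.37 ± 0.36 (SE, adjusted p = 2.2e-10). Itgax, an integrin of activated microglia on chromosome 7 (127728719 to 127749829, plus strand), had 4 counts in all Npc1+/+ libraries together and 29.2 to 35.9 CPM in treated ones. Atp6v0d2 and Cd22 had 3 counts each in the Npc1+/+ libraries together, and their ratios of treated to Npc1+/+ counts had counting intervals of 47.7 to 684 and 33.0 to 476.

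Lists of genes known for microglial states were counted next, and 22 of the 25 tested genes of the disease-associated state rose, none fell, and their median log2 fold change was 1.78. This state is driven by the lipid receptor Trem2 and its adaptor Tyrobp, which rose by 3.62 and 3.43 (log2). Clec7a, a lectin receptor of this state, went from 0.904, 1.15, 0.667 and 0.63 CPM to 46.0, 36.2, 44.1 and 44.9 CPM. Cst7, a cathepsin inhibitor, had no count in any Npc1+/+ library and 120 in the treated ones, at least 45.0-fold higher when 3 counts over the group are taken as the floor. Axl, Ank and Dkk2 did not pass the test. The list's summed level was 3230 to 3580 CPM in Npc1+/+ and 8530 to 9500 CPM in treated cerebella. Most of that sum came from Ctsd, Ctsb and Apoe, the members with the highest means in both groups. Trem2, Tyrobp, Clec7a, Itgax and Cst7 added little to it, so the sum does not measure their rise.

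Genes of surveying, homeostatic microglia rose too, in 10 of 17 cases with a median of 1.14. Cx3cr1, the fractalkine receptor, stood at 10.7, 9.57, 12.9 and 13.7 CPM in Npc1+/+ and at 36.0, 30.9, 39.2 and 37.7 CPM in treated mice (log2 fold change 1.62 ± 0.19, SE, adjusted p = 1.0e-05). The groups were well apart. P2ry13, Gpr34, Csf1r and Olfml3 rose by 1.30 to 1.67, whereas Tmem119 (0.37), Siglech (0.28), Sall1 (-0.54) and P2ry12 (1.23) did not pass. Myeloid receptors and their signalling proteins rose in 27 of 33 cases, with a median of 1.90. Among them were the endosomal nucleic acid receptors Tlr7 (3.52), Tlr9 (2.35) and Tlr13 (2.38), the immunoglobulin receptor chains Fcer1g (3.06) and Fcgr3 (2.44) and the transcription factors Spi1 (2.40) and Irf8 (2.39). Tlr3, the receptor for double-stranded RNA, did not pass (0.61).

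The same libraries held few counts of other immune cells. Cd79a of B cells and Ly6c2 of monocytes were at 0 in all 8 libraries, and Cd3e of T cells reached at most 0.226 CPM. Ccr2, also of monocytes, ran from 0 to 0.378 CPM in Npc1+/+ and from 0.115 to 0.98 CPM in treated cerebella. Mrc1 and Cd163 of border macrophages did not pass the test, at 0.13 and -0.37 (log2). A level of 0 does not show that a cell type was absent, since Hopx of Bergmann glia was also at 0. S100a8 of neutrophils ran from 0.126 to 0.40 CPM in Npc1+/+ and from 0.49 to 5.2 CPM in treated cerebella. The summed level of the list of lymphocyte, blood and border macrophage genes was 12.6 to 18.2 CPM in Npc1+/+ and 13.4 to 26.1 CPM in treated mice, and its part in the immune results was not tested.

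Complement, the cascade that tags targets for phagocytosis, was raised in 9 of 12 tested genes with a median of 2.80, and Cfp fell (-0.79), though not without treated replicate 2, 3 or 4, Npc1+/+ replicate 2, 3 or 4 or vehicle replicate 3. C3, its central component (chromosome 17, 57510970 to 57535136, minus strand), stood at 1.72, 2.39, 1.33 and 2.02 CPM in Npc1+/+ and at 18.6, 22.2, 28.6 and 28.7 CPM in treated cerebella, and its receptor C3ar1 at 0.936 to 1.89 and 30.5 to 52.7 CPM. C1qb, C1qc and C4b rose by 3.39, 3.65 and 3.24, while the membrane inhibitors Cd55 and Cd59a did not pass (-0.08 and -0.22). Chemokines and cytokines rose in 10 of 16 cases (median 1.17, 6 without treated replicate 4). Ccl2, which draws monocytes, was at 0.271, 0.104, 0 and 0 CPM in Npc1+/+ and at 3.47, 5.06, 4.02 and 4.29 CPM in treated mice. Cxcl10, an interferon-induced chemokine, ranged widely among treated libraries, at 1.67, 6.20, 4.82 and 7.68 CPM, against 0.104 to 0.378 CPM in Npc1+/+. Cxcl12, Cx3cl1, Il34 and Il33 did not pass.

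Interferon-stimulated genes rose in 14 of 24 cases and fell in none (median 1.30). Ifit1, an antiviral effector, went from 5.61, 4.06, 3.34 and 3.40 CPM to 13.6, 18.3, 14.9 and 15 CPM, and Lgals3bp from 15.2 to 19.2 CPM to 97.2 to 146 CPM. Irf7 (1.84), Usp18 (2.31) and Oasl2 (2.30) rose while Stat2 and Irf9, which carry the signal from the receptor, did not pass (0.17 and 0.21). Antigen presentation genes rose in 7 of 17 cases (median 0.67). These were of the class I pathway: B2m, its light chain, rose by 1.48, the peptide transporter Tap1 by 1.67, the immunoproteasome subunit Psmb8 by 1.71 and H2-K1 by 1.49. Class I heavy chain genes are near-identical, so the split of reads among H2-K1, H2-Q4 and H2-Q7 is uncertain. Other class I members did not pass, among them the heavy chain H2-D1 (means of 211 and 227 CPM, 0.02), H2-M3 (0.86), H2-T22 (0.24) and Tap2 (0.48). Class II genes did not pass either: H2-Aa stood at -0.03, Cd74 at 0.06 and Ciita at -0.48.

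**Figure D2:**
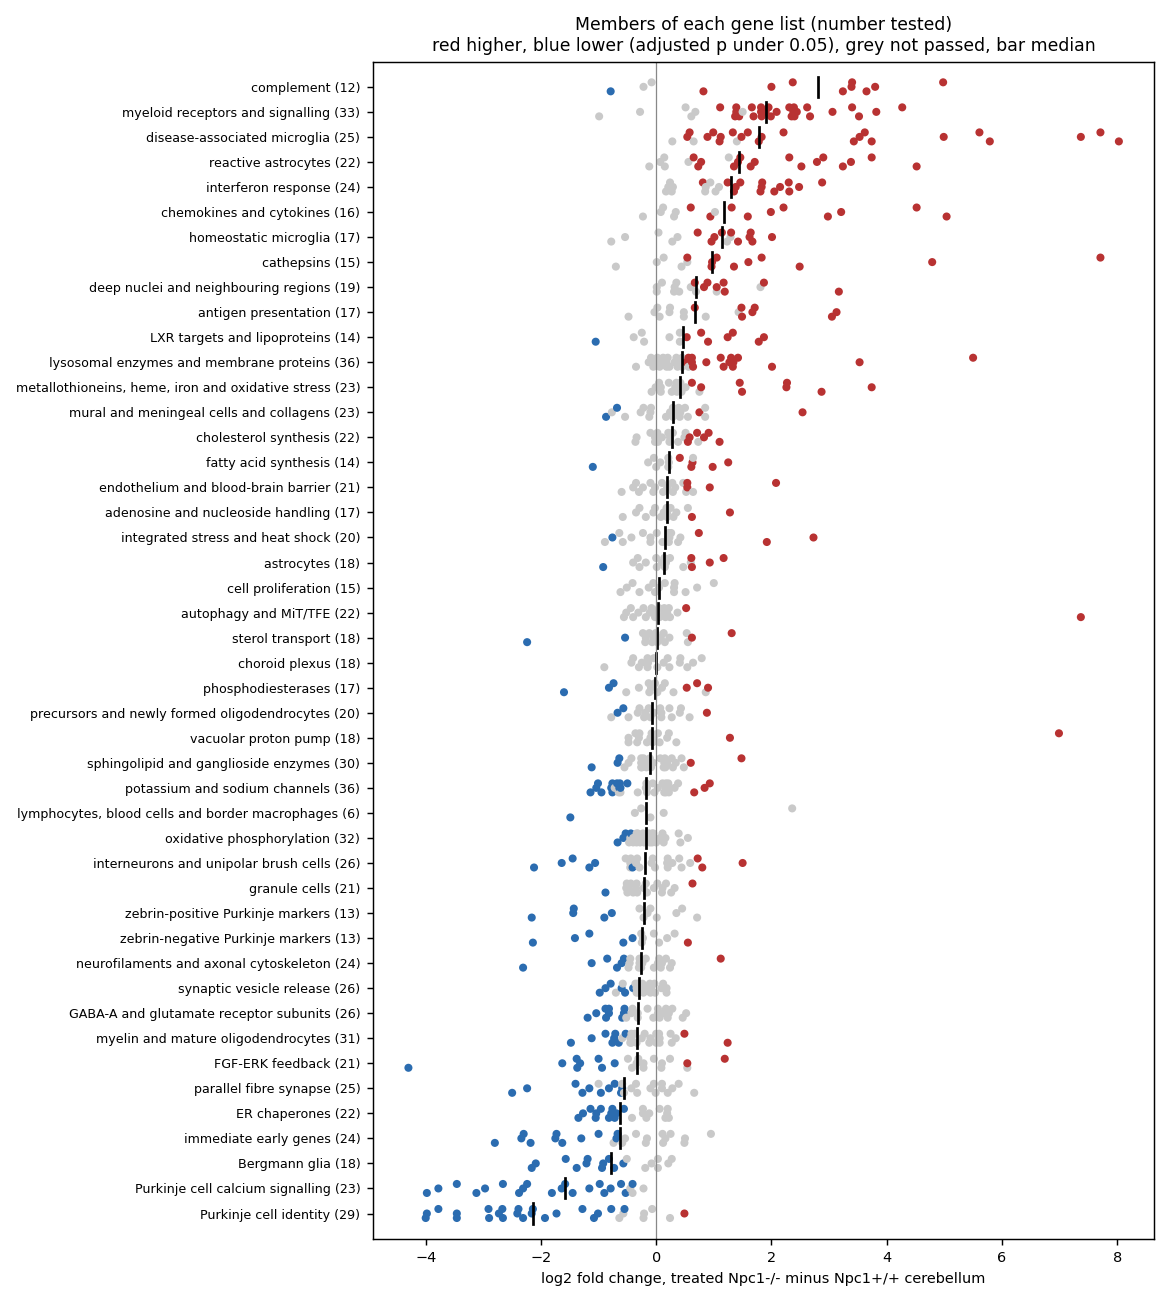
Log2 fold change of treated Npc1-/- against Npc1+/+ cerebellum (x axis) for every tested member of the 46 gene lists (rows, number tested in brackets), red where higher, blue where lower and grey where not past the adjusted p, with the median as a bar. Immune and reactive astrocyte lists lie to the right and Purkinje cell lists to the left, with medians of -2.14 and -1.58 for Purkinje cell identity and calcium signalling.

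Lysosomal genes were raised in part. Many carry the CLEAR element, a palindrome built on CACGTG, near their start, to which the MiT/TFE transcription factors bind. Of the cathepsins and their inhibitors, 10 of 15 rose (median 0.97) and of the other lysosomal enzymes and membrane proteins 16 of 36 (median 0.45, 10 members without treated replicate 4). Of the subunits of the vacuolar proton pump, which acidifies the lysosome, 2 of 18 rose. Against 14.4% of all genes 11.1% of the subunits were called, and their median was -0.07. Windows upstream of 4 of these genes are shown because they carry the element and cover both outcomes, since 3 of them rose and Atp6v1a did not pass. They are RefSeq promoter sequences in build GRCm38.p6, read 5′ to 3′ on the gene's strand, with CACGTG in capitals.
Ctsd, chr7:142387875-142387970, minus strand: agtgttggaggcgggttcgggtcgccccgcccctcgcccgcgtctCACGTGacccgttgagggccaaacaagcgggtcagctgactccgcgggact
Ctsa, chr2:164833716-164833772, plus strand: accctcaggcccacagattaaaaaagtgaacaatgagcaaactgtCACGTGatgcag
Naglu, chr11:101069976-101070071, plus strand: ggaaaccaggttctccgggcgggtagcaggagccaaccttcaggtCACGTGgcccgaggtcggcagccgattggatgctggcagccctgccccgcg
Atp6v1a, chr16:44139340-44139435, minus strand: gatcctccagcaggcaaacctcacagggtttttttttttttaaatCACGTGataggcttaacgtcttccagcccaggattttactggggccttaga

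In Ctsd, Ctsa and Atp6v1a the palindrome is flanked by T and A, giving TCACGTGA, and it begins 98, 12 and 131 bases before the start of the gene. In Naglu it begins 73 bases before the start and lacks the final A. Over the window from 250 bases before to 50 bases after the start, CACGTG (a palindrome, so the same on both strands) was found in 9 of 31 lysosomal, 4 of 10 cathepsin and 4 of 13 proton pump genes with a promoter in the table, and in 11.3% of 10060 tested genes. TCACGTGA was found in 2, 2 and 3 of them and in 1.97% of tested genes. Among lysosomal genes, 4 of the 9 with CACGTG and 10 of the 22 without it rose. A match is a description of letters, not a site.

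Ctsd, the aspartic protease whose window is shown above, stood at 1080, 862, 895 and 757 CPM in Npc1+/+ and at 2950, 2950, 3300 and 3410 CPM in treated cerebella (log2 fold change 1.83 ± 0.18, SE, adjusted p = 1.6e-06). Ctsa rose by 1.05 and Naglu, which cleaves heparan sulfate, by 1.42, whereas Atp6v1a, the catalytic subunit of the pump, did not pass (0.22). Ctss and Ctse, cathepsins of immune cells, rose by 2.49 and 4.79. Ctss stood at 12.9 to 23.7 CPM in Npc1+/+ and at 103 to 126 CPM in treated mice, and Ctse at 0 to 0.252 and 3.33 to 5.14 CPM. Grn, the precursor of granulins, went from 59.9, 59.4, 66.1 and 58.5 CPM to 171, 173, 171 and 144 CPM, a rise of 1.33 (log2). Its groups lay well apart. Hexa rose by 1.30, Man2b1 by 1.34 and Gusb by 1.17. Psap (-0.09), Lamp1 (0.08), Smpd1 (-0.13) and Mcoln1 (0.23) did not pass. The 2 pump subunits that rose were Tcirg1 (1.28) and Atp6v0d2 (6.99), which are known from osteoclasts and macrophages. Of the autophagy and MiT/TFE list 2 of 22 rose, Gpnmb and the receptor Optn (0.52), a share of 9.09% near the 8.13% of all genes that were higher. It was 1 without treated replicate 2, 3 or 4 or Npc1+/+ replicate 1, 2 or 4. Tfeb and Tfe3 stood at 0.06 and -0.11.

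Lipid genes came next, since cholesterol handling is the site of the defect. Npc2, the soluble partner of NPC1, rose from 230, 168, 130 and 133 CPM to 288, 421, 344 and 453 CPM (log2 fold change 1.31 ± 0.25, SE, adjusted p = 0.0017). The groups did not overlap, the lowest treated value being near the highest Npc1+/+ value. In the sterol transport list Lamp2 (0.62) also rose and Osbpl1a (-0.54) fell with Npc1. The other 14 of 18 tested genes did not pass, so 22.2% were called against 14.4% of all genes. Without treated replicate 4 there was 1 higher and 1 lower, and without Npc1+/+ replicate 3 or vehicle replicate 3 also 1 lower. With the GC slope 2 were higher and 1 lower, and with a replicate block 3 and 1. Targets of the oxysterol receptor LXR and lipoprotein genes rose in 7 of 14 cases (median 0.47, 4 without treated replicate 3, with the GC slope or with a replicate block). Apoe, the main lipoprotein of the brain (chromosome 7, 19430034 to 19433113, minus strand), stood at 440, 495, 374 and 406 CPM in Npc1+/+ and at 1930, 1400, 1480 and 1420 CPM in treated mice. Its log2 fold change was 1.78 ± 0.15 (SE, adjusted p = 2.0e-07), and Abca1, which loads lipoproteins with cholesterol, rose by 0.90. Abcg1 (-0.21) did not pass. Nr1h3, the LXR alpha gene itself, fell (-1.05), with means of 9.1 CPM in Npc1+/+ and 6.04 CPM in treated mice. Its groups overlapped, and it did not pass without the sex covariate.

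Genes of the cholesterol synthesis list, which SREBP2 activates when membrane sterol is low, rose in 6 of 22 cases with a median of 0.27. Without treated replicate 4 there were 2, without treated replicate 3 there were 3, with the GC slope as covariate 2, and with a replicate block 1. Hsd17b7, an enzyme of the late pathway, stood at 38.0, 41.3, 34.3 and 34.7 CPM in Npc1+/+ and at 62.7, 54.4, 72.9 and 80.0 CPM in treated cerebella (log2 fold change 0.91 ± 0.17, SE, edgeR adjusted p = 0.0013), and its groups did not overlap. Lss (0.83), Hmgcs1 (1.10), Insig1 (0.58) and Fdft1 (0.55) also rose, while Sqle (0.29) did not pass. Fatty acid genes were split: Gpam (0.98), Acacb (1.25), Srebf1 (0.63), Fads2 (0.61) and Fads1 (0.41) rose and the elongase Elovl6 fell (-1.10), with Fasn (0.21) and Scd1 (0.22) not past the test. Without treated replicate 3 only 3 rose, and Elovl6 did not pass without treated replicate 4. In the sphingolipid and ganglioside list 2 of 30 rose (1 without any single one of 10 libraries) and 3 fell (1 without treated replicate 4), 16.7% called against 14.4% of all genes. Acer2, a ceramidase of the Golgi, rose from 3.23 to 5.16 CPM to 10.6 to 13.3 CPM, and Ugt8a, which makes the galactosylceramide of myelin, fell from 77.7 to 111 CPM to 45.8 to 54.9 CPM.

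Astrocytes and Bergmann glia, the radial astrocytes that ensheath Purkinje cell dendrites, changed in different ways. Of the genes of reactive astrocytes 16 of 22 rose and none fell (median 1.44). Gfap, their intermediate filament (chromosome 11, 102778162 to 102791738, minus strand), stood at 9.49, 9.47, 8.68 and 9.71 CPM in Npc1+/+ and at 164, 115, 140 and 114 CPM in treated cerebella. The log2 fold change was 3.74 ± 0.16 (SE, adjusted p = 5.6e-11). Vim (1.46), Cd44 (2.79), Serpina3n (2.90), Osmr (1.64) and Aspg (3.38) also rose, and S100a10 (0.14) and Amigo2 (0.15) did not pass. Of general astrocyte genes 4 of 18 rose (2 without treated replicate 4), among them the water channel Aqp4 (1.17) and the gap junction protein Gja1 (0.93), and the glutamate transporter Slc1a3 fell.

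Bergmann glial genes fell in 11 of 18 cases and rose in none (median -0.78). Gdf10, a growth factor of these cells, stood at 120, 91.0, 125 and 104 CPM in Npc1+/+ and at 53.7, 46.2, 37.4 and 28.5 CPM in treated mice (log2 fold change -1.57 ± 0.21, SE, adjusted p = 6.6e-05). Slc1a3, the glutamate transporter abundant in Bergmann glia, went from 499, 519, 587 and 487 CPM to 200, 222, 253 and 290 CPM, and Tnc from 19.8 to 29.8 CPM to 3.82 to 6.55 CPM. Both were apart in every library. Wif1 (-1.21), Gria1 (-1.19), Etv4 (-0.94) and Fabp7 (-0.57) fell too, whereas Kcnj10 (0.21), Ptprz1 (-0.08) and Dao (-0.19) did not pass. Slc1a6, which stood on the list, is the transporter of Purkinje cells.

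Fgf7, a fibroblast growth factor on chromosome 2 (125876578 to 125933105, plus strand), was among the lowest of all. It stood at 23, 27.9, 31.8 and 33.4 CPM in Npc1+/+ and at 1.79, 1.80, 1.61 and 1.58 CPM in treated cerebella, a log2 fold change of -4.30 ± 0.27 (SE, adjusted p = 5.9e-09). Treated values lay within a narrow range. The list of FGF ligands, FGF receptors and genes that ERK signalling induces had 8 of 21 lower (5 without treated replicate 4). Of the 8, Fgf7 and 1 other are of the FGF family, and 6 are ERK-induced, among them Etv5 (-1.38), Spry4 (-1.32), Dusp6 (-1.0), Dusp4 (-1.37) and Dusp5 (-1.63). Fgf2 (1.19) and Fgf1 (0.54) rose (1 of them without treated replicate 4), and Spry2 (-0.34) and the receptor Fgfr1 (0.10) did not pass.

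Purkinje cell genes made up the other extreme. These neurons release calcium from internal stores through the IP3 receptor when parallel fibres are active, and buffer it with calbindin and parvalbumin. Of 29 tested identity genes 22 fell, with a median of -2.14, and of 23 calcium signalling genes 20 fell, with a median of -1.58. Their summed levels fell from 8500 to 9650 CPM to 2150 to 2610 CPM and from 9770 to 11400 CPM to 3550 to 4140 CPM. Calb1, calbindin (chromosome 4, 15881264 to 15908064, plus strand), stood at 708, 738, 665 and 666 CPM in Npc1+/+ and at 51.3, 66.1, 47.1 and 59.6 CPM in treated mice (log2 fold change -3.46 ± 0.22, SE, adjusted p = 6.6e-09). Car8, which binds the IP3 receptor (chromosome 4, 8143362 to 8239041, minus strand), stood at 694, 725, 901 and 694 CPM and at 46.2, 50.1, 44.7 and 34.3 CPM, and changed by -3.98 ± 0.25 (SE, adjusted p = 6.6e-09). For both genes every treated library lay far below every Npc1+/+ library.

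The members along the calcium pathway fell by different amounts. The phospholipases Plcb4 and Plcb3, which make IP3, fell by 0.41 and 0.90 on the log2 scale. Itpr1, the IP3 receptor, fell by 2.66, and Itpka, the kinase that turns IP3 over, went from 149, 109, 143 and 116 CPM to 12.7, 8.82, 8.38 and 9.38 CPM. The store pump Atp2a3 fell by 2.97 and its relative Atp2a2 by 0.98, while the ryanodine receptor Ryr1 fell by 3.12. Pvalb stood at 826, 816, 851 and 672 CPM in Npc1+/+ and at 167, 337, 220 and 357 CPM in treated mice. It is also made by the molecular layer interneurons. Channel Cacna1g fell by 1.58, and Cacna1a (-0.45), Gnaq (-0.22) and Stim1 (-0.41) did not pass.

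Other genes of Purkinje cell identity that fell were Pcp2 (-2.73), the transcription factor Skor2 (-2.67), Ppp1r17 (-3.46), the glucose transporter Slc5a1 (-4.00) and Arhgef33 (-2.91). Ppp1r17, a phosphatase inhibitor, stood at 156, 129, 170 and 117 CPM in Npc1+/+ and at 8.25, 13.6, 10.3 and 12.0 CPM in treated cerebella. Rora (-0.78) and Lhx1 (-1.28), transcription factors of these cells, also fell. The GABA-synthesising enzymes differed in sign, Gad1 at -0.55 and Gad2 at 0.49, and Gad2 did not pass without treated replicate 3 or 4 or without Npc1+/+ replicate 2, 3 or 4. Both enzymes are made by all cerebellar inhibitory neurons. Foxp2 (-0.57), Lhx5 (-0.64) and Ppp1r1b (-0.21) did not pass.

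Purkinje cells form stripes that differ in zebrin II, the product of Aldoc. Of the markers of zebrin-positive cells 5 of 13 fell and of zebrin-negative cells 5 of 13 fell and 1 rose, with medians of -0.22 and -0.25. Aldoc itself, which astrocytes also make, stood at 0.01. Kctd12, of the positive cells, went from 81.4, 88.8, 84.4 and 78.2 CPM to 34.4, 25.8, 28.6 and 24.5 CPM, and Rgs8, of the negative list, from 560, 566, 517 and 665 CPM to 160, 141, 112 and 114 CPM. Without treated replicate 3 or 4 the negative list held 2 that fell, and without treated replicate 2 or Npc1+/+ replicate 2, 3 or 4 it held 3. Whether the lists differed from each other was not tested.

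The other lowest genes were mostly low in level. B3gnt5, a glycosyltransferase of the lacto-series glycolipids, stood at 3.98, 5.83, 6.41 and 5.80 CPM in Npc1+/+ and at 0.478, 0.163, 0.23 and 0.113 CPM in treated mice. Nlrp10, Smpx, Dleu2, Nek2, Ryr1 and Trabd2b had Npc1+/+ means of 5.15 to 11.7 CPM and log2 fold changes of -3.76 to -3.03. Dleu2 shares exon positions with Mir16-1 and other loci, and 8 of the 30 genes with the largest changes overlap the exons of another gene. Counting ignored strand, so reads of such genes cannot be told apart.

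At the parallel fibre synapse, where granule cells contact Purkinje cells, 10 of 25 genes fell and none rose (median -0.56). Homer3, a scaffold of the Purkinje cell spine, stood at 361, 312, 294 and 327 CPM in Npc1+/+ and at 81.6, 69.9, 64.3 and 59.1 CPM in treated mice (log2 fold change -2.24 ± 0.18, SE, adjusted p = 1.2e-07). Every treated library lay far below every Npc1+/+ library. The scaffolds Dlg2 and Shank1 fell by 1.40 and 1.28. Cbln1 and Cbln3, secreted by granule cells, stood at 0.10 and -0.04 and did not pass. Granule cell genes as a list had 1 of 21 higher, Zic1 (0.63), and 1 lower, the GABA receptor subunit Gabra6. Their share called, 9.52%, was below the 14.4% of all genes, but the number lower depended on the fit. With the GC slope as covariate 5 of the 21 fell, and with a replicate block 2. Gabra6 went from 322, 326, 483 and 384 CPM to 254, 210, 208 and 187 CPM (log2 fold change -0.88 ± 0.20, SE, adjusted p = 0.0065), and did not pass without treated replicate 4. Zic1 did not pass without treated replicate 3, Npc1+/+ replicate 2 or 4 or vehicle replicate 3, with the GC slope or with a replicate block.

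Unipolar brush cells and interneurons showed 6 of 26 genes lower and 3 higher (1 higher without treated replicate 3 or 4 or Npc1+/+ replicate 2 or 3). Eomes, the transcription factor that marks unipolar brush cells, stood at 7.87, 10.8, 15.1 and 11.8 CPM in Npc1+/+ and at 2.03, 2.12, 2.87 and 1.81 CPM in treated mice (log2 fold change -2.12 ± 0.31, SE, adjusted p = 0.00013). Other genes of these cells did not follow. Lmx1a (0.40), Calb2 (-0.44) and Otx2 (0.20) did not pass, and Plcb4, which fell, is shared with Purkinje cells. Of the interneuron genes Pvalb, described above, fell (-1.45), and Nos1 (0.80), Klhl1 (1.5) and Htr2a (0.72) rose. Kit (-0.45), Pax2 (-0.08) and Slc6a5 (0.44) did not pass. Klhl1 was low, with means of 0.848 CPM in Npc1+/+ and 2.13 CPM in treated mice. Its fold in vehicle-treated Npc1-/- mice was only 0.29, and treated minus vehicle was 1.21 ± 0.96 (95% interval, log2), not past the adjusted p.

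Genes of the deep nuclei and of regions that border the cerebellum, most of them for neurotransmitters, rose in 8 of 19 cases and fell in none (median 0.69, 3 without treated replicate 3 and 4 without treated replicate 4). Th, the first enzyme of catecholamine synthesis, stood at 8.23, 10.6, 8.68 and 8.82 CPM in Npc1+/+ and at 56.8, 31.0, 37.3 and 26.7 CPM in treated cerebella (log2 fold change 1.87 ± 0.32, SE, adjusted p = 0.00071). Trh, the precursor of thyrotropin-releasing hormone, rose by 3.17, and the cholinergic genes Slc18a3, Chat and Slc5a7 by 1.19, 1.05 and 0.83. Trh was low, with means of 0.499 CPM in Npc1+/+ and 4.83 CPM in treated mice, and its groups overlapped. The noradrenergic genes Dbh and Slc6a2 (0.32 and 0.10) and the serotonergic gene Tph2 (1.05) did not pass. Spp1, which stands on this list and on that of disease-associated microglia, rose from 78.6 to 126 CPM to 172 to 255 CPM. The list's summed level, Spp1 included, was 369 to 488 CPM in Npc1+/+ and 678 to 756 CPM in treated mice, and the part of the dissection in it was not tested.

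Channels, receptors and synaptic genes of neurons were counted next. Of the potassium and sodium channels 12 of 36 fell and 3 rose (median -0.17, 6 and 1 without treated replicate 3, 7 and 1 without treated replicate 4), with Kcnma1, the large-conductance channel, going from 180, 192, 160 and 193 CPM to 81.7, 97.0, 83.4 and 81.5 CPM, and Kcnk9 rising by 0.84. Of the GABA-A and glutamate receptor subunits 9 of 26 fell (median -0.32, 5 without treated replicate 4) and of the vesicle release genes 6 of 26 (median -0.29, 0 without treated replicate 4, 1 without treated replicate 3 and 3 without Npc1+/+ replicate 3). Unc13a, which primes vesicles, stood at 166, 207, 173 and 201 CPM in Npc1+/+ and at 130, 130, 121 and 119 CPM in treated mice. Of axonal cytoskeleton genes 6 of 24 fell (2 without treated replicate 4) and Prph rose (1.12), with Tuba8 falling from 122 to 160 CPM to 25.1 to 36.9 CPM, and the neurofilament genes Nefl (0.27), Nefm (0.03) and Nefh (-0.26) did not pass.

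The drug acts on phosphodiesterases and on adenosine uptake, so genes of both were listed. Of the phosphodiesterases 3 of 17 fell and 3 rose (1 and 0 without treated replicate 4, and 1 rose without Npc1+/+ replicate 3). Pde5a, which degrades cyclic GMP and is inhibited by dipyridamole, stood at 42.8, 51.8, 49.0 and 51.2 CPM in Npc1+/+ and at 18.2, 13.7, 14.2 and 15.9 CPM in treated cerebella (log2 fold change -1.60 ± 0.19, SE, adjusted p = 1.3e-05). The vehicle-treated Npc1-/- cerebella held 12.4, 16.2, 16.6 and 11.9 CPM, within or near the treated range. Pde1b, Pde1a and Pde4a rose by 0.71, 0.90 and 0.53, and Pde10a (-0.30) and Pde9a (-0.02) did not pass. Of adenosine and nucleoside genes 2 of 17 rose, the ectonucleotidase Entpd2 (1.28) and the lysosomal nucleoside transporter Slc29a3 (0.62), 1 of them lost in each of 6 fits that left out a library. The share called, 11.8%, lay between the 8.13% of all genes called higher and the 14.4% called either way. The equilibrative transporters Slc29a1 and Slc29a2 (0.18 and -0.05) and the adenosine receptors Adora1 and Adora2a (-0.18 and -0.02) did not pass.

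Among oligodendrocyte genes 8 of 31 fell and 2 rose (median -0.34, 4 lower without treated replicate 4 or vehicle replicate 3, and 5 lower without treated replicate 2 or 3 or Npc1+/+ replicate 2 or 4). Fa2h, which hydroxylates the fatty acids of myelin lipids, stood at 80.8, 73.4, 70.6 and 66.3 CPM in Npc1+/+ and at 54.0, 51.9, 52.2 and 41.7 CPM in treated cerebella (-0.73). Ugt8a (-1.12) and Opalin (-0.76) also fell, Mbp (0.49) and Apod (1.24) rose (1 of them without any single one of 7 libraries), and Mag (-0.20), Mog (-0.45) and Cnp (0.04) did not pass. Of precursor genes 2 of 20 fell and 1 rose (none fell without treated replicate 4, and none rose without treated replicate 3), 15% called against 14.4% of all genes. Pdgfra (0.09), Olig2 (-0.32) and Sox10 (-0.19) did not pass.

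Chaperones of the endoplasmic reticulum fell in 12 of 22 cases and rose in none (median -0.63, 7 without treated replicate 4). Hspa5, the main chaperone BiP (chromosome 2, 34661982 to 34667559, plus strand), stood at 453, 483, 501 and 594 CPM in Npc1+/+ and at 194, 214, 272 and 244 CPM in treated mice (log2 fold change -1.04 ± 0.15, SE, adjusted p = 0.00013). Manf, Sdf2l1, Calr and Pdia6 fell by 1.27, 1.35, 1.14 and 1.05, and the groups of Hspa5 and Manf did not overlap. Calr was low, with means of 2.34 CPM in Npc1+/+ and 1.13 CPM in treated mice. Of the integrated stress and heat shock list Atf3 (2.73), Trib3 (1.92) and Chac1 (0.74) rose and Hsph1 fell (-0.76), while Atf4 (-0.10), Ddit3 (0.38) and Asns (-0.58) did not pass.

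Immediate early genes, which neurons switch on with activity, fell in 11 of 24 cases and rose in none (median -0.63, 7 without treated replicate 4). Nr4a1, a nuclear receptor, stood at 68.5, 46.2, 77.0 and 43.1 CPM in Npc1+/+ and at 14.7, 18, 12.3 and 13.0 CPM in treated mice (log2 fold change -2.30 ± 0.26, SE, adjusted p = 8.0e-06). Nr4a3, Nr4a2 and Egr4 fell by 2.80, 2.34 and 2.18, and Fos by 1.30. Egr1 (0.25), Arc (-0.35) and Junb (0.12) did not pass. The Npc1+/+ and Npc1-/- mice were of different ages and the labels give no time of day, so a part of either was not tested.

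Metallothioneins, heme and oxidative stress genes rose in 8 of 23 cases and fell in none (median 0.42). Mt1 stood at 255, 276, 222 and 296 CPM in Npc1+/+ and at 808, 734, 666 and 666 CPM in treated cerebella, and Hmox1, which degrades heme, rose by 2.26. The NADPH oxidase genes Cybb (3.74), Cyba (2.87) and Ncf1 (2.27) are of phagocytes, while Sod1 (-0.08), Nqo1 (0.27) and Gclm (0.05), which meet oxidants in most cells, did not pass. Respiratory chain genes fell in 4 of 32 cases (median -0.18, 0 without treated replicate 4 or vehicle replicate 3, 7 with the GC slope). Their share called, 12.5%, lay between the 6.29% of all genes called lower and the 14.4% called either way. Vascular genes rose in 4 of 21 cases (1 without treated replicate 3 or 4, 2 without treated replicate 2 or Npc1+/+ replicate 1 or 3), led by the adhesion molecule Icam1 (2.08), and Cldn5 and Pecam1 did not pass. Of mural, meningeal and collagen genes 2 of 23 rose, H19 (2.54) and Fn1 (0.75), and 2 fell (0 without treated replicate 4), 17.4% called against 14.4% of all genes. No choroid plexus gene (18 tested) and no proliferation gene (15 tested) passed. The choroid plexus sum ran from 1210 to 3300 CPM in Npc1+/+ and from 2270 to 3970 CPM in treated libraries.

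Treated and vehicle-treated Npc1-/- cerebella were then set side by side, since the question was what remained under the drug. No gene of 12921 passed the adjusted p in edgeR's test of treated against vehicle (0.0%), DESeq2 and limma-voom also called 0, and 300 genes had an unadjusted p under 0.05. That last count was 846 without vehicle replicate 2, the shallowest library at 1.83 M counts, and 634 without vehicle replicate 3. It was 508 without treated replicate 2 and 139 without treated replicate 1, with 0 genes past the adjusted p in each of these fits. If no gene differed, about 1 in 20 of the genes tested would fall under 0.05, more than each of these counts except 846. The smallest p belonged to Bhlha9, Crym, Arpc3, Osbpl5 and Rab18, with log2 differences of -1.10, -0.97, -1.02, -0.84 and -0.52 and an adjusted p of 1. Crym, a thyroid hormone binding protein, stood at 12.1, 5.92, 10.3 and 15.3 CPM with vehicle and at 5.14, 5.22, 8.04 and 5.31 CPM with dipyridamole, against 9.83 to 11.6 CPM in Npc1+/+. Its vehicle and treated ranges overlapped. For 11148 of the 12921 genes (86.3%) the 95% interval of treated minus vehicle lay within 1 log2 unit either way. The same held for 1618 of the 1864 genes called against Npc1+/+ (86.8%). However, 1041 of the 1864 differed from Npc1+/+ by less than 2-fold, and the median size over the 1864 was 0.92 (log2). For such genes an interval within 1 log2 unit cannot show how much of the difference remained.

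For the 30 genes with the largest differences from Npc1+/+, treated minus vehicle ran from -0.65 to 0.54 (log2) and every 95% interval held 0. In 22 of them the interval lay within 1 log2 unit, and in the other 8, all with means under 12 CPM in both groups, it was wider. Calb1 differed by -0.02 (95% interval -0.39 to 0.35), Car8 by 0.09 (-0.32 to 0.51), Lyz2 by 0.10 (-0.22 to 0.41) and Gpnmb by -0.18 (-0.63 to 0.28). Each of these intervals was narrower than the difference from Npc1+/+. C3 stood nearest to the edge, at -0.43 (-0.87 to 0.00), with 35.6, 20.5, 29.5 and 37.4 CPM under vehicle. Npc1 was lower by 0.60 in treated than in vehicle cerebella (interval -1.07 to -0.14, adjusted p = 1), and its ranges overlapped. Both comparisons with Npc1+/+ share their control mice. Median log2 fold changes against Npc1+/+ were 1.78 in treated and 1.69 in vehicle cerebella for disease-associated microglia, -2.14 and -2.16 for Purkinje cell identity, 1.44 and 1.45 for reactive astrocytes, 0.97 and 0.93 for cathepsins and -0.63 and -0.60 for chaperones.

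**Figure D3:**
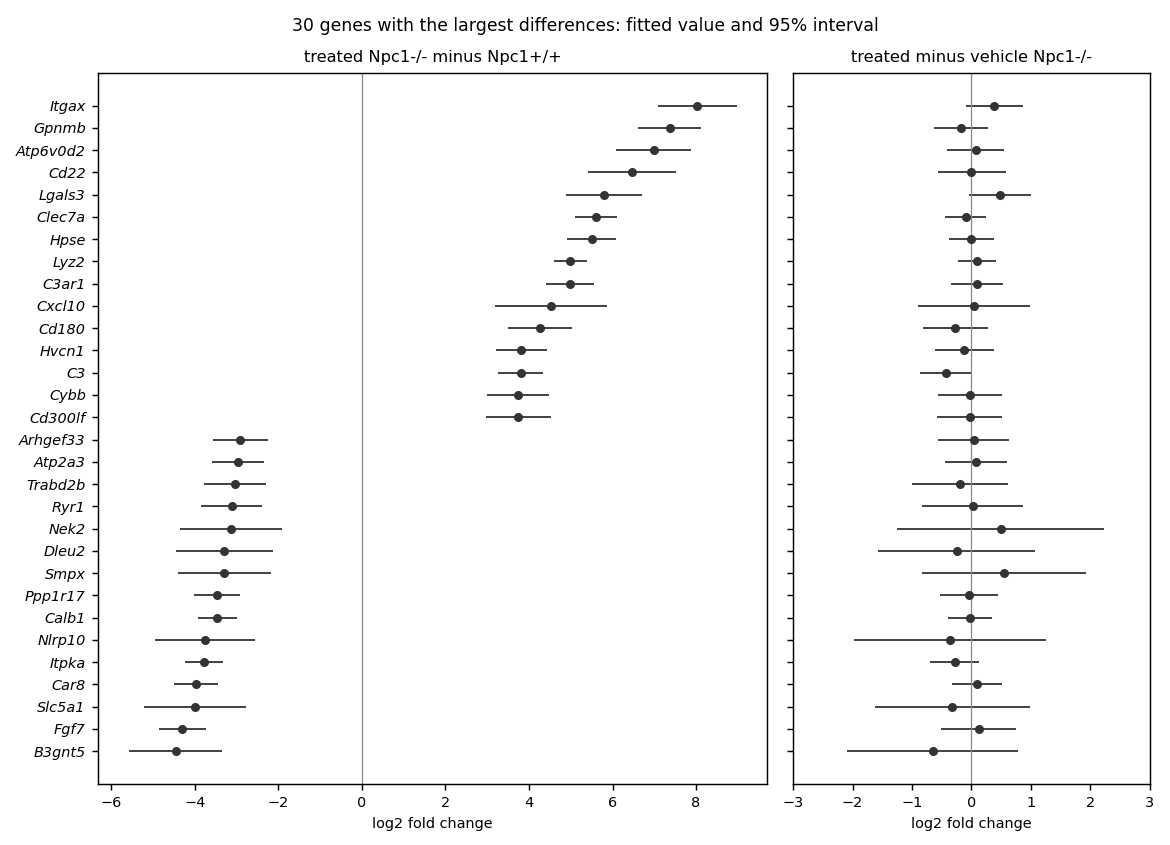
Fitted log2 fold change with its 95% interval (x axis) for the 15 highest and 15 lowest genes (rows), treated Npc1-/- against Npc1+/+ cerebellum on the left and treated against vehicle-treated Npc1-/- cerebellum on the right. On the left the values run from -4.46 to 8.03, and on the right all 30 intervals hold 0.

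The hippocampus of the same treated and Npc1+/+ mice was used to ask where the cerebellar difference was of its own size. The difference between tissues passed the adjusted p in 245 of 13436 genes (1.82%), 127 with the higher fold in cerebellum and 118 with the lower, in a fit over 24 libraries with the mouse as block. Of the 30 genes above 12 were among them. Car8 stood at 3.87 to 5.92 CPM in Npc1+/+ and at 2.52 to 10.4 CPM in treated hippocampus, and its cerebellar fold was lower by 4.69 (log2, edgeR adjusted p = 6.4e-06). Itpka, which hippocampal neurons make at 297 to 519 CPM in Npc1+/+, stood at 316 to 518 CPM in treated hippocampus, and the tissues differed by -3.87 (adjusted p = 2.7e-05). Calb1, Tuba8, Icmt and Cep76 likewise had the lower fold in cerebellum, by 3.04, 2.49, 2.24 and 2.81. These genes fell in the cerebellum, and their hippocampal log2 fold changes were -0.47, 0.14, -0.16 and -0.12.

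For a minority of microglial genes the difference between tissues passed the test, with the larger fold in cerebellum. Not passing does not show that the folds of the other genes were equal. Gpnmb was at 0.429 to 1.93 CPM in Npc1+/+ and 5.27 to 10.8 CPM in treated hippocampus, and the tissues differed by 4.11 (adjusted p = 7.0e-05). Of the disease-associated microglia list 10 of 25 genes differed between tissues, as did 3 of 17 homeostatic and 7 of 33 myeloid genes, all with the higher cerebellar fold. Of Purkinje cell identity 16 of 29 differed, all with the lower. Myelin genes differed in 25 of 31 cases, all with the higher fold in cerebellum. Mag, a myelin adhesion protein, stood at 190, 242, 190 and 245 CPM in Npc1+/+ and at 276, 220, 209 and 170 CPM in treated cerebella, but at 185, 141, 175 and 102 and at 28.4, 17.5, 26.9 and 9.97 CPM in hippocampus. Its groups overlapped in the first tissue and lay far apart in the second, with a difference of 2.90 (adjusted p = 0.00011), and Mal (2.25) and Prima1 (2.81) differed likewise. Choroid plexus genes summed to 317 to 5070 CPM in Npc1+/+ and 297 to 5770 CPM in treated hippocampus, and their part was not tested. The count was 131 without the mouse of treated replicate 4, whose libraries of both tissues carry the same ion code, and 488 without Npc1+/+ replicate 4.

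**Figure D4:**
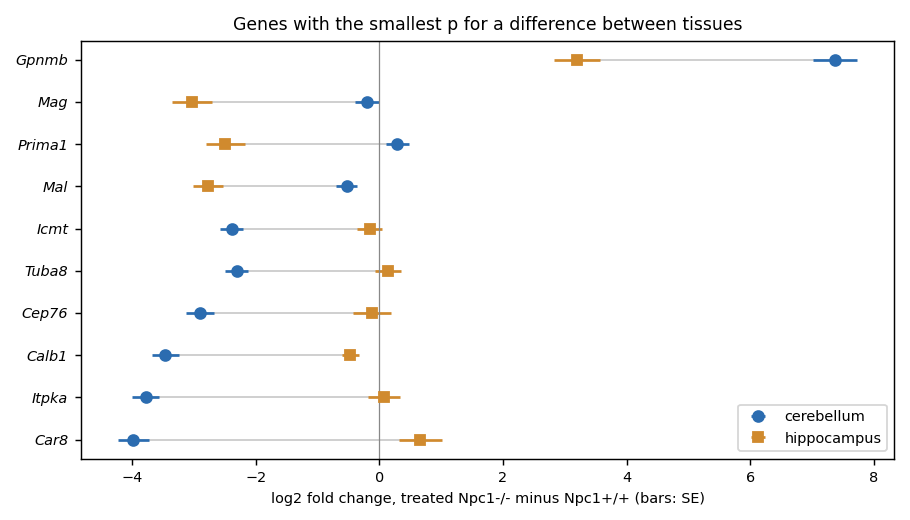
Log2 fold change of treated Npc1-/- against Npc1+/+ (x axis, bars SE) in cerebellum (circles) and hippocampus (squares) for the 10 genes with the smallest p for a difference between tissues (rows). Calb1, Car8, Itpka, Tuba8, Icmt and Cep76 lie low in cerebellum and between -0.47 and 0.66 in hippocampus, and Mag, Mal and Prima1 lie low in hippocampus and nearer 0 in cerebellum.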

How the data were processed

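Per the labels' protocols, cDNA of cerebellum and hippocampus was amplified by a multiplexed Ion AmpliSeq mouse transcriptome panel and sequenced (Ion S5). The authors used, per the submitters' processing notes, FastQC 0.11.9, Trimmomatic 0.39, STAR 2.7.9a and featureCounts 2.0.3 with GRCm39, and per the file headers GENCODE M34 without strand. The deposited values are raw counts of reads per gene. Cerebellar totals were 6.12 to 8.81 M in treated and 7.48 to 11.32 M in Npc1+/+ mice. Amplicon reads carry no molecular identifiers, so counting intervals (95%, exact) and floors (3 counts) cover counting error only.

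The 12 cerebellar libraries were fitted together with edgeR 4.0.16 (R 4.3.3): filterByExpr, TMM factors, sex as covariate, robust quasi-likelihood test, Benjamini-Hochberg adjustment over all tested genes, threshold 0.05. Fold changes are adjusted for sex, so they can differ from ratios of means. The fits were tested on simulated data. Replicates of a group differed by more than sampling noise, with a chi-square over its degrees of freedom of 6.64 to 35.84, and each came from its own mouse.

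The comparison, the 46 gene lists and the tests were chosen with earlier results of these data known. Named were Npc1, the 15 highest and 15 lowest fold changes (adjusted p passed, mean of at least 5 CPM, groups apart, no Xist, Y-linked or clone names), up to 4 members of each list (further members are given as values, chosen after theirs were seen), the 5 smallest p of treated against vehicle and 10 of the tissue difference. Alternatives were DESeq2 1.42.0, limma-voom 3.58.1, fits without sex or with the replicate number as block, other scalings and filters, fewer groups, females only each library left out and, chosen after seeing the data, the GC slope as covariate. Gene coordinates are those of the files. Promoters are RefSeq's, matched by symbol. Some genes of the lists are counted but not reported here by name.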

Additional observations from a re-analysis of the deposited data

Results flagged for a closer look

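In 5 of 64 checks of a group of 4 libraries, 1 library stood apart from the other 3 by Dixon's criterion, where chance gives about 1 in 20. These were Cd300lf in Npc1+/+ replicate 2 (1.04 CPM), Car8 and Dleu2 in Npc1+/+ replicate 3 (901 and 10.1 CPM), Ryr1 in Npc1+/+ replicate 4 (11.6 CPM) and the total of treated replicate 2 (6.12 M counts). In each of the 4 genes the library apart was the highest of its group.

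The fold of treated Npc1-/- against Npc1+/+ differed between cerebellum and hippocampus, tested in a single fit over both tissues. The difference (cerebellum minus hippocampus, log2) was -3.04 for Calb1, -4.69 for Car8, -2.49 for Tuba8, -3.87 for Itpka, 4.11 for Gpnmb, -2.24 for Icmt, -2.81 for Cep76, 2.81 for Prima1, 2.90 for Mag and 2.25 for Mal.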

How the results depend on the processing

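The 30 genes with the largest differences kept direction and passed the threshold in all 685 pairs of a gene and a fit that tested it. They had been chosen from these data for large folds, a passed test and groups apart, so this outcome was close to fixed. Over all 174 named genes there were 3991 such pairs, of which 212 lost the threshold, 8 gained it and 0 reversed. The 1864 genes called became 1171 with a replicate block (1116 shared). The replicate numbers of treated and Npc1+/+ mice do not pair them (deviations correlated at -0.361 to 0.145, different mice). Leaving out 1 library gave 858 to 2307, lowest without treated replicate 4. In females alone 2238 were called, and without the sex covariate 2612. Treated against vehicle gave 0 in each fit, the replicate block and each left-out library included, except without a filter (13). The tissue difference gave 369 without the tissue by sex term and 131 with the compared groups alone. It gave 227 without the mouse as block and 131 to 488 with 1 mouse left out. Library totals, RLE factors and TMM differed by less than 0.1 in the median fold. Npc1+/+ mice were all female and older by 2 days, so neither age nor sex within that genotype could be tested.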
